A study of Rattus norvegicus with 12 samples.

Results

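The genes described here are 9 transcription factors of the heart: Mef2c, Mef2a and Mef2d of the MEF2 family, Irx4 of the Iroquois homeobox family, Gata4 and Gata6 of the GATA zinc-finger family, the T-box factors Tbx5 and Tbx20, and the basic helix-loop-helix factor Hand2. They were picked by symbol, with earlier results of these data known. The array annotation named a probe set for 8 of the 9, and none was annotated to Tbx20, which therefore has no value. The 8 genes had 17 probe sets among the 31042 that were not controls, all 17 passed the filter on low signal, and each gene is given by its probe set of highest mean signal unless another is named. The cells were primary cardiomyocytes from ventricles of newborn (1-day-old) Wistar rats, separated from fibroblasts by how fast the cells attach, kept in OPTI-MEM for 24 h and then exposed for 3 h to a steroid or to ethanol. The groups were cortivazol (CVZ), corticosterone (COR), aldosterone (ALD) and ethanol vehicle, with 1 array in each of 2 experiments (n = 2 per group), and CVZ plus RU486, COR plus RU486, ALD plus RU486 and RU486 alone, with 1 array each, all in the second experiment (n = 1 per group). RU486, an antagonist of the glucocorticoid receptor, was given beforehand at 10 µM. The doses of the 3 steroids are not in the labels, so differences between ligands and differences in dose cannot be told apart, and the labels do not say whether the experiments used separate cell preparations or how many animals were pooled.

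These factors form much of the regulatory network that builds and maintains heart muscle. GATA4, HAND2, MEF2C and TBX5 bind enhancers of cardiac genes and often act together, and MEF2 proteins are also switched by signalling, being held inactive by class IIa histone deacetylases and activated by p38 and calcium-dependent kinases. IRX4 is a repressor found in ventricular and not atrial muscle, known from chick and mouse for keeping ventricular muscle from expressing atrial genes. Cortivazol is a synthetic glucocorticoid, corticosterone is the main natural glucocorticoid of rats and also binds the mineralocorticoid receptor, and aldosterone is the natural ligand of the mineralocorticoid receptor that binds the glucocorticoid receptor more weakly.

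Signal is given on the deposited linear scale, on which the median probe set of each array is 1, and probe sets are compared only with themselves. The fit was limma on log2 values of 18625 probe sets with the experiment as a block, and a gene was called changed at a Benjamini-Hochberg adjusted p below 0.05. Errors of log2 differences are standard errors, which borrow most of their degrees of freedom from the whole table, and a p-value speaks of no more than the scatter of these arrays, which may be technical. The summed signal of 9 cardiomyocyte markers was lowest on the 3 arrays with ligand and RU486, at 1819 to 1852, and highest on the CVZ arrays, at 2284 and 2286, with 2027 to 2201 on the others. That of 5 smooth muscle markers was 24.6 to 28.9 on the RU486 arrays, 32.4 to 35.8 on the others of the second experiment and 44.1 to 50.8 in the first, and that of the fibroblast markers was 175 to 189 on the 4 RU486 arrays, 197 to 202 with ligand and 193 with vehicle in the second experiment, against 363 to 440 with ligand and 443 with vehicle in the first. The part of these marker sums in the results was not tested. They were summed on the deposited scaling only, and the part of that scaling in them was not tested either. In RNA from a whole culture, fewer cells of a type and less RNA per cell cannot be told apart. Fkbp5, a chaperone gene known as a direct target of the glucocorticoid receptor, had signals of 43.5 and 43.8 with CVZ, 26.6 and 28.2 with COR and 10.9 and 13.4 with ALD, against 1.52 and 2.17 with vehicle.

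After 3 h Irx4 and Mef2c were lower and Gata6 was higher on both arrays of each of the 3 ligands than on either vehicle array. The arrays of the other 5 genes overlapped with vehicle for every ligand. This view ignores the pairing by experiment. Gata4, Mef2d and Hand2 were higher in the second experiment (by 0.67, 0.82 and 0.44 on the log2 scale) and Mef2a was lower (-0.27), in all 4 groups. For Irx4 and Gata6 that shift was only 0.04 and 0.08. All 3 ligands were set against the same vehicle arrays, and how many of all probe sets separated in this way was not counted. The separation is therefore a description and not a result about these genes. With CVZ, 4 of the 8 genes passed the test, where 7.96% of all tested probe sets did (4.77% higher and 3.19% lower): Irx4, Mef2c and Gata4 fell and Gata6 rose. With COR 3 of 8 passed (3.39% of all tested probe sets, 2.44% higher and 0.956% lower), with Irx4 and Mef2c lower and Gata6 higher, and with ALD only Gata6 passed, 1 of 8, where 0.95% did (0.87% higher and 0.0805% lower). For the mean of the 3 ligands 3 of 8 passed, where 5.44% did: Irx4 (2.01-fold lower), Gata6 (0.78 ± 0.09 on the log2 scale) and Mef2c (-0.50 ± 0.09), the last of which was lost without the first vehicle array (-0.43, adjusted p 0.07). Because the genes were chosen with earlier results of these data known, the shares of all probe sets are background and not a test of the group. The median log2 difference of the 8 genes was -0.30 for CVZ, -0.09 for COR and -0.12 for ALD, and the median of all tested probe sets was 0.01, 0.01 and 0.02 for the same ligands. Mef2a, Mef2d, Tbx5 and Hand2 did not pass the test in any of the 11 comparisons by their brightest probe set.

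**Figure D1:**
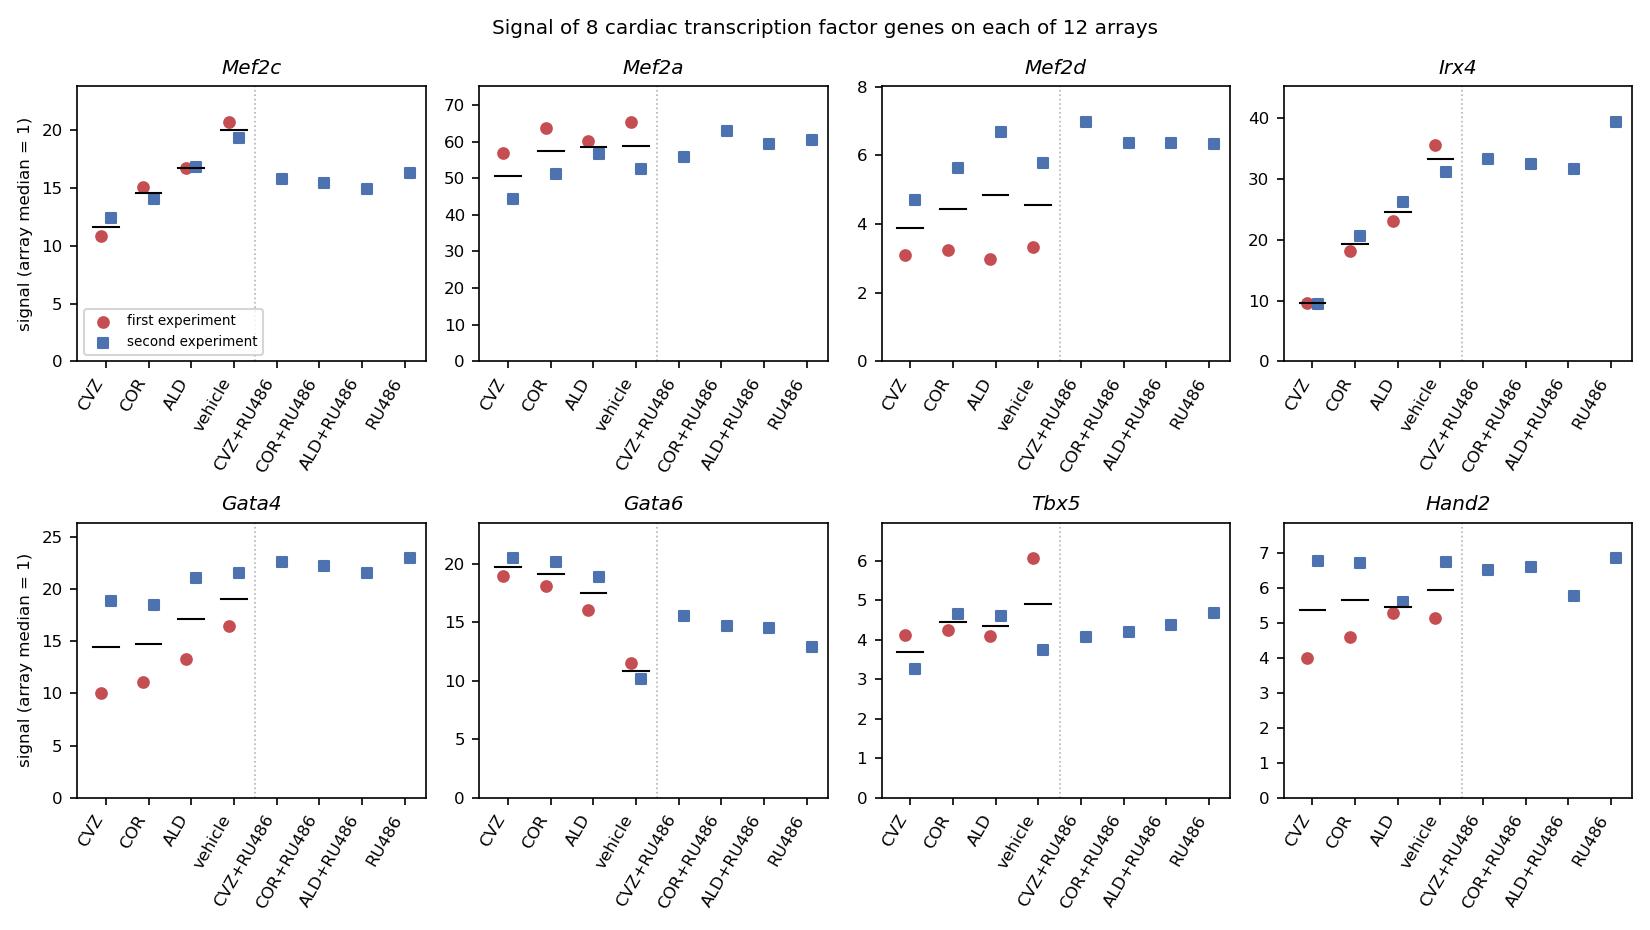
Signal (array median 1, linear axis from 0) of the brightest probe set of each of 8 genes on all 12 arrays, circles for the first and squares for the second experiment, with a bar at the mean of groups of 2. Irx4 lies at 9.66 and 9.48 with CVZ against 35.6 and 31.1 with vehicle, and Gata4, Mef2d and Hand2 sit higher in the second experiment in all 4 groups.

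Irx4 had the largest CVZ difference of the 8 genes. The 300 bases around its start, shown because this gene carries the main result, come from RefSeq (build GRCr8, chr1:31868040-31868339, minus strand, 250 bases before the start and 50 from it on) and are written 5′ to 3′ with the letters of an E-box in capitals.
Irx4: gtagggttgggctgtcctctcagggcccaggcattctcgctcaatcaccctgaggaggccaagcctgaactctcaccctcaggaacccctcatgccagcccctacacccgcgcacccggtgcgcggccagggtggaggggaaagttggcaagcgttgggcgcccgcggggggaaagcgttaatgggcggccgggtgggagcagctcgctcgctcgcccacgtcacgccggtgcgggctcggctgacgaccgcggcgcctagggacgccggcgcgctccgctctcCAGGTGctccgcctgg
The E-box, the 6-letter pattern CANNTG that basic helix-loop-helix factors such as HAND2 bind, begins as CAGGTG 35 bases after the start. It is a common pattern, held by 72.1% of 33469 windows of the same length, and its presence is a description of the letters only.

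The signal of Irx4 was 9.66 and 9.48 with CVZ, 18.1 and 20.6 with COR and 23.0 and 26.1 with ALD, against 35.6 and 31.1 with vehicle. The 4 groups did not overlap, and the order from low to high was CVZ, COR, ALD and vehicle in both experiments. The group means were 9.57 ± 0.131 for CVZ, 19.3 ± 1.76 for COR and 24.6 ± 2.22 for ALD, against 33.3 ± 3.13 for vehicle (SD, n = 2 each). Irx4 was thus 3.46-fold lower with CVZ (log2 difference -1.79 ± 0.11, adjusted p 1.5e-08) and 1.72-fold lower with COR (-0.78 ± 0.11, adjusted p 0.00027). The difference for ALD, -0.44 ± 0.11, missed the threshold (adjusted p 0.075), although it was -0.63 in the first and -0.25 in the second experiment. Within experiments the CVZ difference was -1.87 and -1.71, and the COR difference -0.97 and -0.60. Leaving out the second vehicle array brought the ALD difference to -0.59 and past the threshold (adjusted p 0.034), and quantile and trimmed-mean scaling did so too (-0.50, adjusted p 0.015, and -0.48, adjusted p 0.024). The second probe set of Irx4 was dim, at 0.0431 to 1.14, and passed in no comparison.

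**Figure D2:**
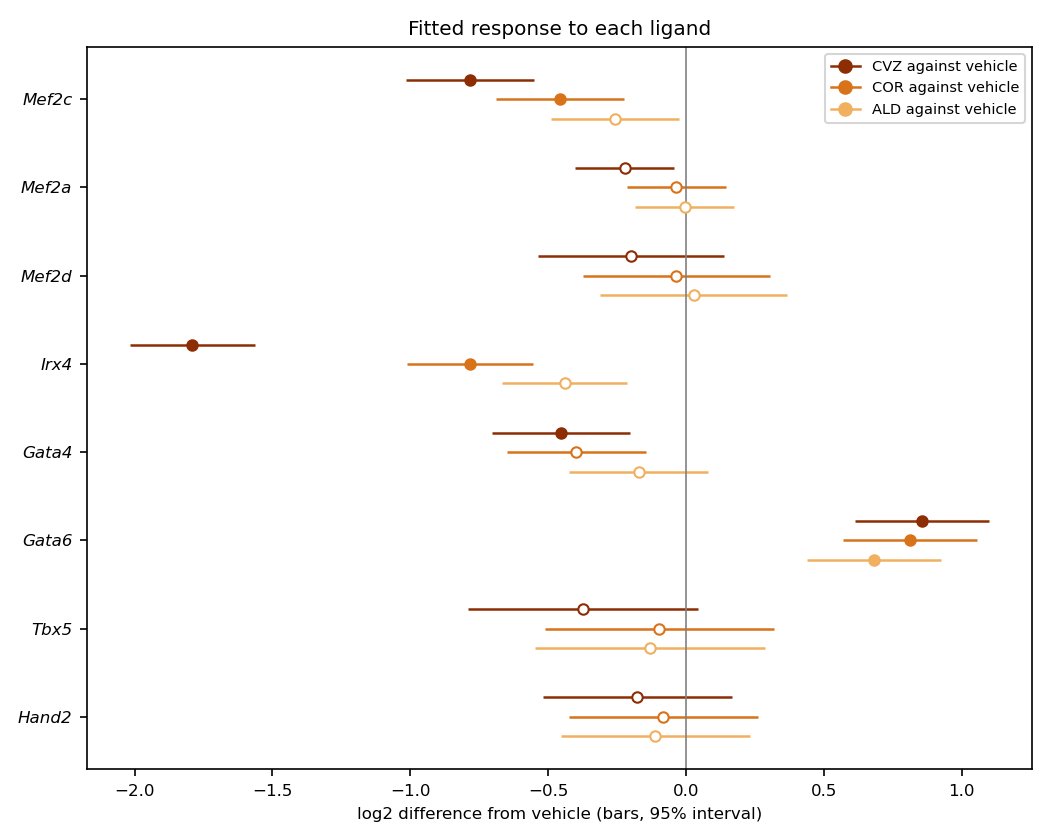
Fitted log2 difference from vehicle of 8 genes for CVZ, COR and ALD (points, with bars for the 95% interval; filled where the adjusted p is below 0.05). Irx4 lies at -1.79 with CVZ, -0.78 with COR and -0.44 with ALD, while Gata6 stays between 0.68 and 0.86.

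The other Iroquois genes on the array are from a list of 32 further cardiac transcription factors and cofactors. In the annotation Irx4, Irx2 and Irx1 are consecutive genes on chromosome 1, and Irx5 and Irx3 are neighbours on chromosome 19. Irx1 had signals of 0.953 and 1.82 with CVZ against 2.32 and 2.93 with vehicle, and Irx5 had 1.21 and 0.509 with CVZ against 2.41 and 1.53 with vehicle. Neither pair of groups overlapped, but how many of all probe sets separate in this way was not counted. Both genes, of 4 relatives, passed the test for CVZ, where 7.96% of all tested probe sets did. The differences were -0.95 ± 0.21 for Irx1 (adjusted p 0.0083) and -1.21 ± 0.30 for Irx5 (adjusted p 0.019). Both were dim, at 0.953 to 3.59 for Irx1 and 0.509 to 2.41 for Irx5 over all arrays, near the array median of 1. The Irx1 call was lost without the first CVZ array (-0.79, adjusted p 0.11) or the first vehicle array (-0.73, adjusted p 0.15). The Irx5 call was lost without the second CVZ array (-0.79, adjusted p 0.27), the first vehicle array (-1.14, adjusted p 0.16) or the second vehicle array (-1.28, adjusted p 0.095). Irx2, between Irx4 and Irx1 on the chromosome, had a mean signal of 1.12, near the array median, and its CVZ difference of -0.93 ± 0.33 did not pass (adjusted p 0.12), nor did that of Irx3, -0.36 ± 0.12 (adjusted p 0.095). With COR and ALD none of these 4 relatives passed.

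Of the GATA genes, Gata6 rose with all 3 ligands and Gata4 was called only for CVZ, lower. Gata6, which encodes a zinc-finger activator of cardiac and smooth muscle genes, had signals of 18.9 and 20.5 with CVZ, 18.1 and 20.1 with COR and 16.1 and 18.9 with ALD, against 11.5 and 10.2 with vehicle. Every ligand array stood above both vehicle arrays. COR overlapped with both other ligands, and the lower CVZ array was just above the higher ALD array. Gata6 was 1.81-fold higher with CVZ (0.86 ± 0.11, adjusted p 9.3e-05), 1.76-fold higher with COR (0.81 ± 0.11, adjusted p 0.00037) and 1.60-fold higher with ALD (0.68 ± 0.11, adjusted p 0.0051). The rise was larger in the second experiment for each ligand, at 1.00, 0.98 and 0.89 for CVZ, COR and ALD, with 0.71, 0.65 and 0.47 in the first. The ALD call was lost without the second ALD array (0.58, adjusted p 0.10) or the second vehicle array (0.51, adjusted p 0.10). The second probe set of Gata6 was dim, at 0.398 to 1.63, and did not pass.

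Gata4, the partner of HAND2, MEF2 and TBX5 at many cardiac enhancers, had signals of 10.0 and 18.9 with CVZ, 11.1 and 18.5 with COR and 13.3 and 21.0 with ALD, against 16.5 and 21.6 with vehicle. The groups overlapped because the second experiment was higher than the first in all 4 groups, by 0.67 on the log2 scale on average. Within each experiment all 3 ligand arrays were below the vehicle array, although by only 0.04 for ALD in the second. The fitted difference passed for CVZ (-0.45 ± 0.12, adjusted p 0.025) and did not for COR (-0.40 ± 0.12, adjusted p 0.093) or ALD (-0.17 ± 0.12). In the first experiment the CVZ difference was -0.71, and in the second -0.19. The call was lost without the first CVZ array (-0.30, adjusted p 0.37) or the first vehicle array (-0.26, adjusted p 0.31), and the fibroblast marker sum was also unlike between the experiments, as given above. The part of that difference in the Gata4 result was not tested. The second Gata4 probe set, at 2.29 to 3.92, had a CVZ difference of -0.18 ± 0.23.

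Gata5, the third cardiac GATA gene and not one of the 9, had signals of 3.32 and 5.37 with CVZ against 5.29 and 7.32 with vehicle, and fell with CVZ (-0.55 ± 0.15, adjusted p 0.035). That call was lost when any of the 4 arrays of CVZ and vehicle was left out, with adjusted p between 0.078 and 0.28. Zfpm2, which encodes the GATA cofactor FOG2, had a CVZ difference of -0.06 ± 0.24 and did not pass with any ligand.

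In the MEF2 family Mef2c was called, lower, for CVZ and COR, and Mef2a and Mef2d were called by some of their probe sets for CVZ. Differences between genes and between probe sets were not tested. Mef2c, needed for formation of the right ventricle in mice, had signals of 10.8 and 12.4 with CVZ, 15.1 and 14.1 with COR and 16.7 and 16.8 with ALD, against 20.7 and 19.3 with vehicle. As for Irx4, the groups did not overlap and stood in the order CVZ, COR, ALD and vehicle, low to high. Mef2c was 1.72-fold lower with CVZ (-0.78 ± 0.11, adjusted p 0.00014) and 1.37-fold lower with COR (-0.46 ± 0.11, adjusted p 0.028), and the ALD difference of -0.26 ± 0.11 did not pass (adjusted p 0.48). Within experiments the differences were -0.93 and -0.64 for CVZ, -0.45 and -0.46 for COR and -0.31 and -0.20 for ALD. The COR call was lost without any 1 of the 4 arrays of COR and vehicle, with adjusted p between 0.059 and 0.34.

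The second Mef2c probe set had signals of 6 and 6.52 with CVZ, 7.55 and 8.57 with COR and 9.09 and 9.12 with ALD, against 8.19 and 8.91 with vehicle. CVZ was again below vehicle with no overlap (-0.45 ± 0.12, adjusted p 0.031), whereas COR overlapped with vehicle (-0.09 ± 0.12) and both ALD arrays were above it (0.09 ± 0.12). Both probe sets thus fell with CVZ, and for COR the brighter one passed and the other did not, with overlapping 95% intervals (-0.69 to -0.22 and -0.34 to 0.17).

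Mef2a and Mef2d encode MEF2 proteins that bind the same site as MEF2C, and loss of Mef2a in mice causes cardiac death soon after birth. The window of Mef2a (RefSeq, build GRCr8, chr1:130392113-130392412, minus strand, with the same span around the start) is shown because it holds the letters of the family's own site, in capitals.
Mef2a: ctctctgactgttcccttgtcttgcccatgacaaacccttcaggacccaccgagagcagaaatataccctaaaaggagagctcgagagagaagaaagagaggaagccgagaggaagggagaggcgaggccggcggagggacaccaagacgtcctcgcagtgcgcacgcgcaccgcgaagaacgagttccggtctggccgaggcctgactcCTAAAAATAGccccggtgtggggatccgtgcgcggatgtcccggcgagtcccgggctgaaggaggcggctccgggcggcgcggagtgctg
The letters in capitals were searched for on both strands. They begin 40 bases before the start of Mef2a, and 0.137% of all 33469 windows hold them.

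By its brightest probe set Mef2a had signals of 56.9 and 44.2 with CVZ, 63.7 and 51.2 with COR and 60.3 and 56.5 with ALD, against 65.4 and 52.4 with vehicle. The groups overlapped, with the second experiment lower in all 4 groups, and the CVZ difference of -0.22 ± 0.08 did not pass (adjusted p 0.15). The other 3 Mef2a probe sets gave larger differences for CVZ: the dimmest was at 17.7 and 13.1 with CVZ against 25.04 and 18.01 with vehicle (-0.48 ± 0.10, adjusted p 0.0051). A further one was at 35.6 and 33.7 with CVZ against 48.9 and 38.3 with vehicle (-0.32 ± 0.09, adjusted p 0.035), and the last had -0.34 ± 0.10 (adjusted p 0.053). All 4 were below vehicle with CVZ within both experiments and 2 of the 4 passed, so the choice of the brightest one decided that Mef2a was not called. None of the 4 passed for COR or ALD, where their lowest difference was -0.33.

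Mef2d had signals of 3.09 and 4.70 with CVZ, 3.25 and 5.62 with COR and 2.99 and 6.67 with ALD, against 3.33 and 5.76 with vehicle. The second experiment was higher than the first in every group, by 0.82 on average on the log2 scale, and the ligand differences of -0.20 ± 0.16, -0.03 ± 0.16 and 0.03 ± 0.16 for CVZ, COR and ALD did not pass. Its second probe set was at 1.09 and 3.21 with CVZ against 3.16 and 4.08 with vehicle and passed for CVZ (-0.91 ± 0.24, adjusted p 0.025), a difference carried mostly by the first experiment.

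**Figure D3:**
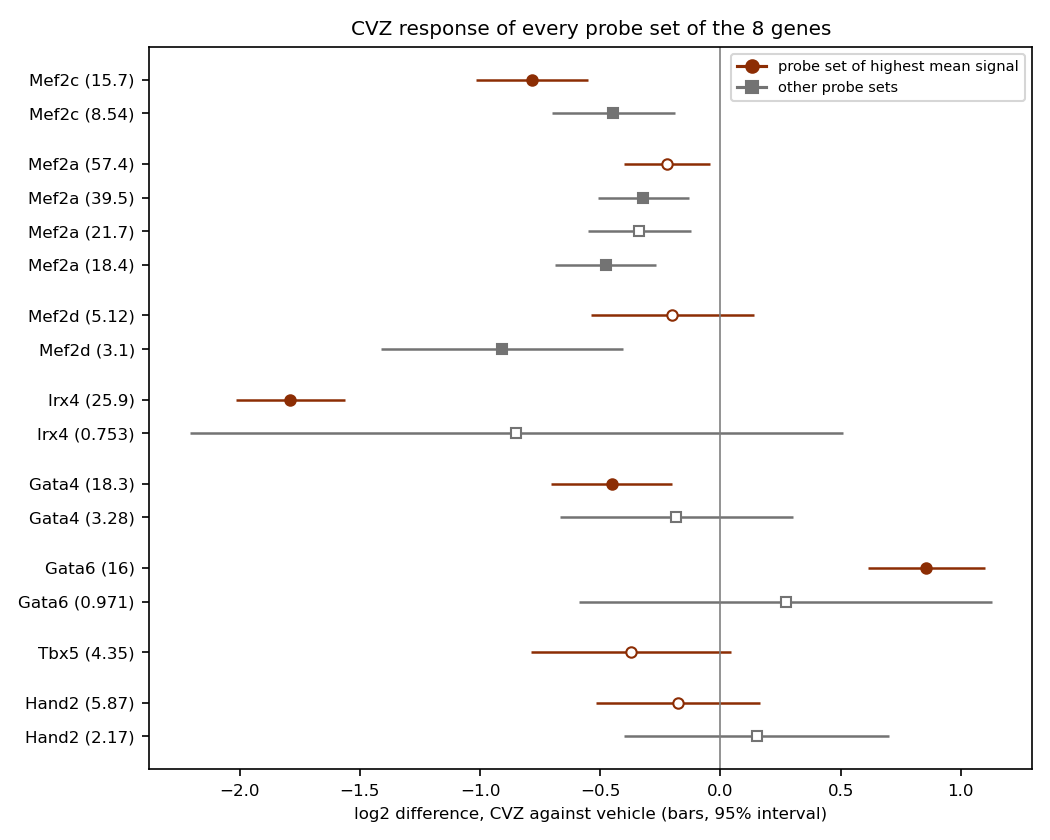
Log2 difference of CVZ against vehicle for all 17 probe sets of the 8 genes (points, with bars for the 95% interval; filled where the adjusted p is below 0.05; mean signal in brackets; circles for the brightest probe set of a gene, squares for the others). Both Mef2c and all 4 Mef2a probe sets lie below 0, and the dim second probe sets of Irx4 and Gata6 have wide intervals.

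Tbx5 and Hand2 did not pass with any ligand. Tbx5, a T-box activator of conduction and chamber genes, had signals of 4.12 and 3.25 with CVZ, 4.26 and 4.65 with COR and 4.11 and 4.61 with ALD, against 6.07 and 3.74 with vehicle. The 2 vehicle arrays enclosed all ligand arrays but the second CVZ array, and the CVZ difference of -0.37 ± 0.20 had an adjusted p of 0.34. Hand2, needed for the right ventricle in mice, had signals of 3.98 and 6.77 with CVZ, 4.60 and 6.70 with COR and 5.29 and 5.59 with ALD, against 5.14 and 6.72 with vehicle. Its groups overlapped, and the differences were -0.18 ± 0.16 for CVZ, -0.08 ± 0.16 for COR and -0.11 ± 0.16 for ALD. The 95% intervals for CVZ, -0.79 to 0.04 for Tbx5 and -0.52 to 0.17 for Hand2, still hold falls as large as that of Gata4.

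Of the list of 32 further cardiac factors, 29 were on the array and 25 were tested. With CVZ 1 rose and 6 fell, where 4.77% of all tested probe sets rose and 3.19% fell. The list had a median of -0.21 with CVZ, and all tested probe sets had one of 0.01. With COR and with ALD 0 of 25 passed, where limma called 3.39% and 0.95% of all tested probe sets. Besides Irx1, Irx5 and Gata5, those that fell were Prox1, a homeobox gene of cardiac and lymphatic development (-1.20 ± 0.15, adjusted p 6.0e-05), and the homeobox genes Meis1 (-0.63 ± 0.12, adjusted p 0.0034) and Meis2 (-0.58 ± 0.12, adjusted p 0.0038). Prox1 had 4.06 and 4.63 with CVZ, 6.24 and 8.35 with COR and 7.55 and 9.99 with ALD, against 11.03 and 9.18 with vehicle. The 1 gene that rose was Hopx, which encodes an atypical homeodomain protein that restrains SRF, at 6.57 and 9.89 with CVZ against 3.77 and 6.45 with vehicle (0.70 ± 0.14, adjusted p 0.0039), a call lost without the first CVZ array (0.53, adjusted p 0.11). The Meis1 call was lost without the first vehicle array (-0.48, adjusted p 0.076) and the Meis2 call without the first CVZ array (-0.56, adjusted p 0.051). Nkx2-5, the cardiac homeobox gene that partners GATA4 and TBX5, did not pass (-0.21 ± 0.12), nor did Srf (-0.10 ± 0.11) or Myocd (-0.37 ± 0.16).

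The steroids were compared with each other directly, at doses that are not known. COR against CVZ differed for 1 of the 8 genes, where 0.966% of all tested probe sets passed, and ALD against CVZ for 2 of 8, where 4.25% did. For COR against CVZ the 180 calls behind this share came to 112, 81, 59 and 24 without the first CVZ, second CVZ, first COR and second COR array. For ALD against CVZ the 792 calls came to 514, 506 and 479 without the first CVZ, second CVZ and first ALD array. Irx4 was 2.01-fold higher with COR than with CVZ (1.01 ± 0.11, 95% interval 0.78 to 1.23, adjusted p 0.00029) and 2.55-fold higher with ALD than with CVZ (1.35 ± 0.11, interval 1.12 to 1.58, adjusted p 1.8e-06). Mef2c was 1.44-fold higher with ALD than with CVZ (0.53 ± 0.11, interval 0.30 to 0.76, adjusted p 0.0087), and its second probe set passed as well (0.54, adjusted p 0.016). The call of the brighter probe set was lost without the first CVZ array (0.40, adjusted p 0.20), the first ALD array (0.53, adjusted p 0.065) or the second ALD array (0.52, adjusted p 0.063). For Gata6 no pair differed past the threshold: the intervals were -0.29 to 0.20 for COR against CVZ, -0.42 to 0.07 for ALD against CVZ and -0.38 to 0.11 for ALD against COR. Between ALD and COR 0 of the 8 genes passed, where 0.295% of all probe sets did (55 of 18625, and 1155 at an unadjusted p below 0.05). The 55 came to 2, 31, 12 and 34 without the first COR, second COR, first ALD and second ALD array. The nearest was Irx4, higher with ALD by 0.34 in each experiment (interval 0.12 to 0.57, adjusted p 0.38).

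The RU486 arrays were all from the second experiment and had the highest inferred medians before the deposited scaling, 35.4 to 37.7, against 21.1 to 33.7 on the other arrays. These medians were not given with the data and were read back from the spacing of the values on each array. Irx4 had a signal of 33.2 with CVZ plus RU486, 32.5 with COR plus RU486 and 31.6 with ALD plus RU486, against 9.48, 20.6 and 26.1 with the same ligands alone in that experiment. It was 39.4 with RU486 alone and 31.1 with vehicle in that experiment, so the 3 arrays with ligand and RU486 lay between these. With any of the 3 ligands Irx4 was thus near its vehicle level under RU486, but below RU486 alone, which was itself 0.34 above vehicle on the log2 scale. Against RU486 alone the differences were -0.24 for CVZ, -0.28 for COR and -0.32 for ALD. For ALD this was no smaller than the -0.25 from vehicle without RU486. Within the second experiment the difference made by RU486 to Irx4 was 1.80 for CVZ, 0.66 for COR and 0.27 for ALD. Averaged over the ligands in the fit it rose by 0.95 ± 0.08 (adjusted p 4.8e-06), 1 of the 2 genes of the 8 that passed in this comparison, where 4.87% of all tested probe sets did (1.88% higher and 2.99% lower).

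Gata6 had a signal of 15.5 with CVZ plus RU486, 14.7 with COR plus RU486 and 14.5 with ALD plus RU486, against 20.5, 20.1 and 18.9 with the ligands alone in the second experiment. Gata6 was the other gene that passed, and all 3 arrays were below the ligand arrays and above the RU486 array at 12.9 and the vehicle array at 10.2. The fitted fall averaged over the ligands was -0.37 ± 0.09 (adjusted p 0.026). It was lost when any 1 of 5 arrays was left out (second CVZ, second COR, second ALD, CVZ plus RU486 or COR plus RU486), with values between -0.36 and -0.31 and adjusted p between 0.11 and 0.16. In the second experiment the arrays with ligand and RU486 stayed 0.51 to 0.60 above vehicle on the log2 scale, and RU486 alone was 0.34 above it.

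Mef2c had signals of 15.8 with CVZ plus RU486, 15.4 with COR plus RU486 and 14.9 with ALD plus RU486, against 12.4, 14.1 and 16.8 with the ligands alone in the second experiment. RU486 alone gave 16.3, against 19.3 with vehicle. By this brightest probe set all 4 RU486 arrays were therefore below both vehicle arrays, and only CVZ and COR, not ALD, were lower without RU486 than with it. The mean over ligands, 0.12 ± 0.09, did not pass (adjusted p 0.57), nor did RU486 against vehicle (-0.29 ± 0.14, interval -0.59 to 0.00, adjusted p 0.74). The second Mef2c probe set showed no such drop, with 8.42 for RU486 alone against 8.91 for vehicle. By that probe set each ligand, ALD included, was lower without RU486 than with it in the second experiment. The signals were 6.52 against 9.36 for CVZ, 8.57 against 10.5 for COR and 9.12 against 10.3 for ALD. The brightest Mef2a probe set was 0.24 ± 0.07 higher with RU486 on top of the ligands (adjusted p 0.052), and its dimmest was 0.34 ± 0.08 higher (adjusted p 0.016).

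**Figure D4:**
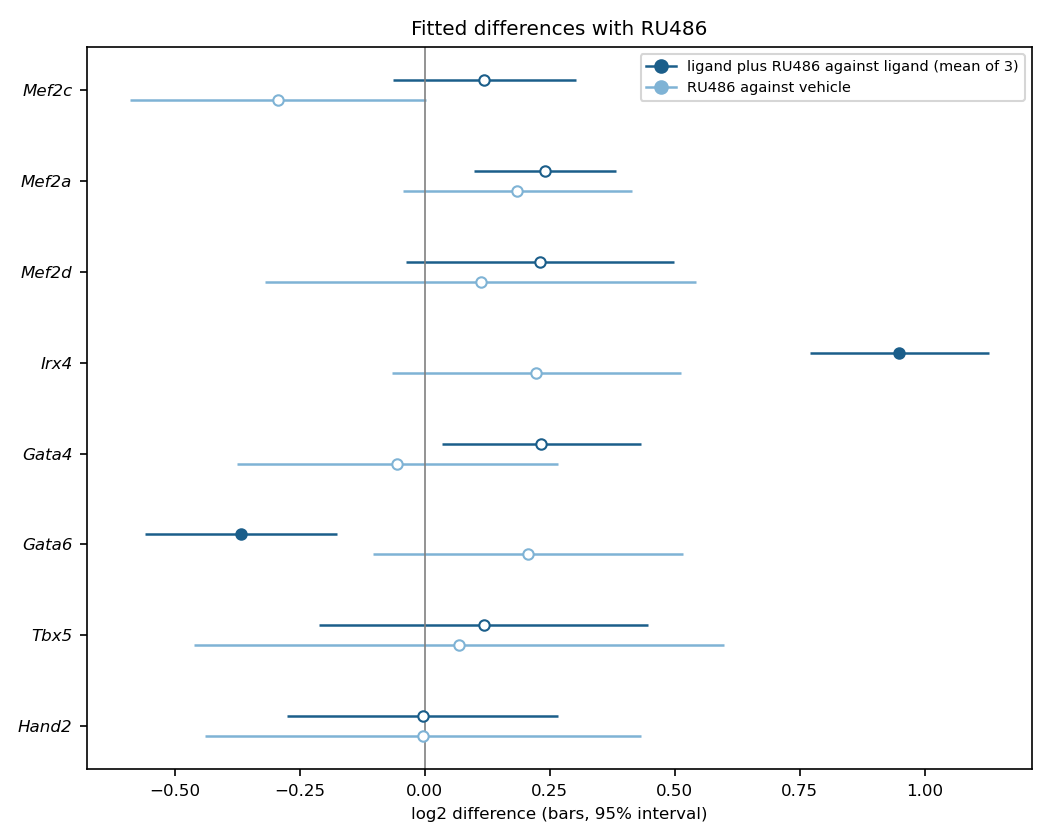
Fitted log2 differences of 8 genes for ligand plus RU486 against ligand, averaged over 3 ligands, and for RU486 alone against vehicle (points, with bars for the 95% interval; filled where the adjusted p is below 0.05). Irx4 at 0.95 and Gata6 at -0.37 are the filled points, and the intervals for RU486 alone are wider because it has 1 array.

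RU486 alone against vehicle gave 0 of 8 genes by limma, where 0.129% of all tested probe sets passed (24 of 18625, and 1257 at an unadjusted p below 0.05). The 24 came to 11, 38 and 42 without the second vehicle, first ALD and second ALD array. The differences of the 8 genes lay between -0.29 and 0.22. With RU486 present, ligand against RU486 alone also gave 0 of 8, and 0 of all 18625 probe sets passed (0%, and 462 at an unadjusted p below 0.05; 1 to 3 passed without either vehicle array or either ALD array). There Irx4 had a difference of -0.28 ± 0.12 and Gata6 one of 0.21 ± 0.13. The ligand response with RU486 differed from that without it for 1 of the 8 genes, where 1.09% of all probe sets passed (203, with 54 without the CVZ plus RU486 array and 360 without the ALD plus RU486 array). That gene was Irx4 (0.73 ± 0.15, adjusted p 0.025), a call lost without the CVZ plus RU486 array (0.32, adjusted p 0.95) or the first vehicle array (0.57, adjusted p 0.10). For Gata6 the same test gave -0.57 ± 0.16 (adjusted p 0.15) and for Mef2c 0.41 ± 0.15 (adjusted p 0.40).

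Of the other cardiac factors 2 of 25 rose with RU486 on top of the ligands and 0 fell, where 1.88% of all tested probe sets rose and 2.99% fell. Prox1 was at 12.1 to 12.7 with ligand and RU486, against 4.63, 8.35 and 9.99 with CVZ, COR and ALD alone in that experiment (0.84 ± 0.12, adjusted p 0.00049), a call lost without the CVZ plus RU486 array (0.58, adjusted p 0.079). Meis2 was at 11.1 to 11.6, against 6.68, 8.09 and 10.2 (0.49 ± 0.09, adjusted p 0.0040), and its call was lost without the CVZ plus RU486 array (0.33, adjusted p 0.23).

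Genes for proteins that control MEF2 activity were taken from a list too. From a list of 17, which holds the class IIa deacetylases, p38 and its kinase and the calcium-dependent kinases, 13 were tested and 0 passed in any of the 11 comparisons by limma, where the share of all tested probe sets was at most 7.96% (for CVZ), so that a count of 0 is near the background. Camk2d, the main cardiac calcium/calmodulin kinase gene, had a CVZ difference of -0.06 ± 0.08, Mapk14, which encodes p38α, one of -0.12 ± 0.14, and Hdac5 one of -0.23 ± 0.21. Hdac4 had a mean signal of 0.728, below the array median, and its COR difference of -1.74 ± 0.51 did not pass (adjusted p 0.088).

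A list of 28 cardiac genes known as targets of these factors had 26 tested members. With CVZ 5 rose and 2 fell, with a median of 0.08, where 4.77% of all tested probe sets rose and 3.19% fell. With COR 3 rose and 0 fell (Klf2, Nppb and Ppargc1a), where 2.44% and 0.956% did, and with ALD 1 rose and 0 fell (Ppargc1a), where 0.87% and 0.0805% did. The COR call of Klf2 was lost without any 1 of the 4 arrays of COR and vehicle, with adjusted p between 0.066 and 0.32, and the ALD call of Ppargc1a without the second ALD array (0.49, adjusted p 0.15) or the second vehicle array (0.55, adjusted p 0.079). Those that rose with CVZ were Klf2 (1.12 ± 0.20, adjusted p 0.0015), a target of MEF2 in endothelium, Nppb, the gene for B-type natriuretic peptide (1.09 ± 0.13, adjusted p 2.8e-05), Ppargc1a, a coactivator gene of mitochondrial metabolism (0.93 ± 0.10, adjusted p 1.4e-05), Xirp1 (0.43 ± 0.10, adjusted p 0.013) and Myh7 (0.35 ± 0.09, adjusted p 0.025). The summed signal of 5 endothelial markers was 13.6 and 7.22 with CVZ against 10.3 and 5.16 with vehicle, none of the 4 tested passed, and its part in the Klf2 result was not tested. Ppargc1a was at 20.8 and 22.5 with CVZ, 23.2 and 22.3 with COR and 15.8 and 17.9 with ALD, against 11.1 and 11.5 with vehicle. The genes that fell with CVZ encode the gap junction proteins connexin 43 (Gja1, -0.54 ± 0.09, adjusted p 0.00062) and connexin 40 (Gja5, -0.35 ± 0.10, adjusted p 0.039). Nppa, the atrial natriuretic peptide gene activated by GATA4, TBX5 and MEF2C, had 0.11 ± 0.07 and did not pass (adjusted p 0.48). The Xirp1 call was lost without either CVZ array (0.40, adjusted p 0.13, and 0.46, adjusted p 0.077) or the first vehicle array (0.39, adjusted p 0.091), and the Myh7 call without the second CVZ array (0.25, adjusted p 0.34) or the second vehicle array (0.16, adjusted p 0.34). The Gja5 call was lost without any 1 of the arrays of CVZ, COR and vehicle, with adjusted p between 0.065 and 0.36.

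**Figure D5:**
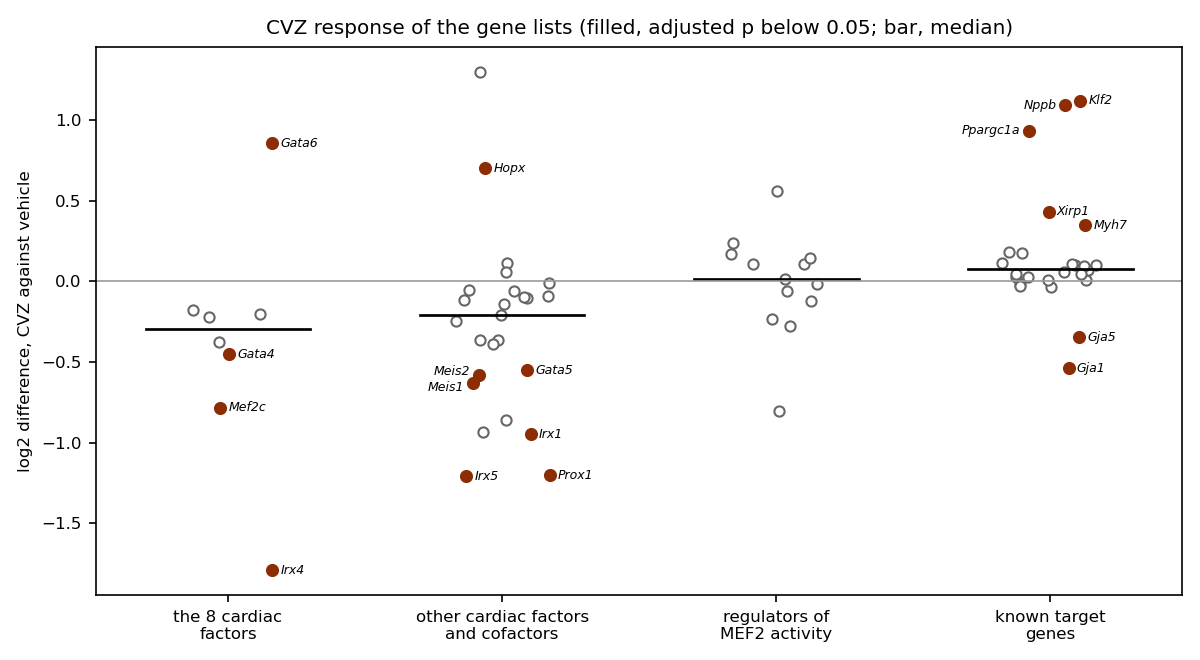
Log2 difference of CVZ against vehicle for the 8 cardiac factors, 25 other cardiac factors and cofactors, 13 regulators of MEF2 activity and 26 known target genes (1 point a gene, filled where the adjusted p is below 0.05; bar, median of the list; sideways spread only separates points). The MEF2 regulators hold no filled point, and Irx4 is the lowest point of all 4 lists.

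RU486 alone raised 1 target, Nppb, at 43.5 with RU486 against 50.2 and 20.7 with vehicle in the first and second experiment (fitted difference 0.999 ± 0.17, adjusted p 0.022), a call lost without the second vehicle array (0.88, adjusted p 0.25). With RU486 on top of the ligands 1 target rose, Gja1 (0.27 ± 0.07, adjusted p 0.032), and 10 fell, with a median of -0.19, where 1.88% of all tested probe sets rose and 2.99% fell. Among them were Ppargc1a (-0.53 ± 0.08, adjusted p 0.00082) and the contractile genes Myh6 (-0.24 ± 0.05, adjusted p 0.0053) and Myh7 (-0.28 ± 0.07, adjusted p 0.034). The Gja1 call was lost without the second CVZ array (0.16), the second ALD array (0.29) or the CVZ plus RU486 array (0.13), with adjusted p between 0.051 and 0.66. The Myh6 call was lost without the second CVZ array (-0.25, adjusted p 0.059) or the CVZ plus RU486 array (-0.17, adjusted p 0.23). The Myh7 call was lost without any 1 of the second CVZ, COR and ALD arrays, the CVZ plus RU486 array or the COR plus RU486 array, with adjusted p between 0.057 and 0.24. Under quantile normalization the Myh6 difference was 0.047, so its direction rests on the scaling. Of the 9 cardiomyocyte markers tested, some of which stand in both lists, 6 fell in the same comparison, with a median of -0.21, and the part of this in the target list was not tested.

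The genes most like Irx4 and Mef2c over the 12 arrays were looked for among 10082 named genes, by Pearson correlation of log2 values. Before that, each experiment's mean over the 4 groups present in both experiments was taken off. Arrays share groups and an experiment, so the correlations are given as a description. For Irx4 they were Mtss1 (r 0.987), Sh3bp5 (0.986), Dlc1 (0.986), Btg1 (0.983) and Nrp1 (0.980), and over the 8 arrays of the second experiment these stood at 0.980 to 0.984. Their CVZ differences lay between -1.12 and -0.70, a direction that the choice by likeness to Irx4 on the same arrays fixes. For Mef2c they were Art4 (r 0.981), LOC102554253 (0.968), Tmem51 (0.959), Ccdc69 (0.954) and Efnb3 (0.949), with 0.928 to 0.979 in the second experiment. Their CVZ differences, fixed in direction by the choice in the same way, were -0.97, -0.95, -1.86, -1.71 and -0.45 in that order. Among the 8 cardiac factors themselves, with the same means taken off, Mef2c and Irx4 correlated at 0.81, Irx4 and Gata4 at 0.85 and Irx4 and Gata6 at -0.75, over 12 arrays. By Spearman correlation Mef2c and Irx4 stood at 0.63. Genes not called by their brightest probe set reached similar values, with Irx4 and Mef2a at 0.85, Mef2a and Mef2d at 0.85 and Irx4 and Mef2d at 0.75. Irx4 and Hand2 stood lower, at 0.31.

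The RefSeq windows of 7 of the 9 genes, those other than Mef2c and Gata4, were also read for sites of the receptor and of the factors themselves. None of the 7 held the full palindromic glucocorticoid response element, found in 0.0149% of all windows, or the element AGAACA, which is 1 arm of it, on either strand, found in 20.7%. The GATA site AGATAA was in the window of Hand2 and in 11.6% of all windows, and the T-box site AGGTGTGA was in none of the 7 and in 1.1% of all. E-boxes were in those of Irx4, Tbx5 and Hand2. The windows of Irx4 and Mef2a were 71% and 63% G or C, where the median window had 51.7%.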

How the data were processed

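RNA of 12 cultures was hybridised to Affymetrix arrays. The authors deposited linear intensity values from MAS5, per the submitters' processing notes. Tested on the files, the median of every array was 1, so the authors had divided each array by its median. The number of arrays limits the precision. Controls (57 of 31099 probe sets) were set aside. After addition of 0.0696, the 10th percentile of all values, log2 was taken, and a probe set was tested where its mean exceeded the 40th percentile (18625, for 10082 named genes). Differences were fitted in R 4.3.3 with limma 3.58.1 (lmFit, eBayes with trend) for 8 groups with the experiment as a block, because deviations from the group means correlated within experiments (0.512 to 0.567). Residual degrees of freedom were 3, with 12.2 from the prior. The 1-array RU486 groups were taken to vary like the others. Where RU486 groups are set against others, arrays of the first experiment also enter. P-values were adjusted over all 18625 probe sets (Benjamini-Hochberg). Replicates correlated at 0.934 to 0.944 with 0 identical values.

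The array annotation gave 1 gene for 20826 probe sets, several for 436 and none for 9780. Of a gene's probe sets the one with the highest mean signal was used. All 9 genes of the report are named, and of the lists those past the threshold and some others. The members and lists were chosen with earlier results of these data known, and the target and cardiomyocyte marker lists share genes. Promoter windows come from RefSeq, build GRCr8. The procedure was tested on data simulated with normal noise from its own fitted variances. That setting suits the fit, and no result here rests on the test. Alternatives were other pseudocounts, filters and scalings, a fit without the experiment, without the variance trend, the mean of a gene's probe sets, each experiment alone, and leaving out each array.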

Additional observations from a re-analysis of the deposited data

Results flagged for a closer look

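The response to the ligands differed with and without RU486, by the test of that difference in limma, for 4 of the genes followed here, where 1.09% of all tested probe sets passed. The 4 were picked by this test from among the 8 cardiac factors, the gene lists and Fkbp5. Irx4 gave 0.73 (adjusted p 0.025), the mean ligand difference being less negative with RU486 than without it. Fkbp5 gave -2.72, Nppb -1.20 and Ppargc1a -0.80, the ligand differences of these genes being positive without RU486 and lower with it. The tests rest on 1 array for each RU486 group.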

How the results depend on the processing

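The CVZ fall of Irx4 passed in 21 of 21 other settings (-1.94 to -1.32), that of Mef2c in 20 of 21 and the CVZ rise of Gata6 in 19 of 21. The experiment pairs the arrays by the labels. With no replicate block, the members called numbered 1 for CVZ, 0 for COR, 0 for ALD, 1 for the mean of the ligands, 0 for COR against CVZ, 0 for ALD against CVZ, 1 for ligand plus RU486 against ligand and 0 for the interaction (the difference between the ligand responses with and without RU486). The Mef2c CVZ difference was then at an adjusted p of 0.11 and that of Gata6 at 0.096. With no mean-variance trend the numbers were 0 for COR, 0 for ALD, 1 for the mean, 0 for COR against CVZ, 1 for ALD against CVZ, 0 for ligand plus RU486 against ligand and 0 for the interaction. With the mean of all probe sets per gene they were 0 for COR, 0 for ALD, 1 for the mean, 0 for COR against CVZ, 1 for ligand plus RU486 against ligand and 0 for the interaction, a setting that averages in the dim probe sets of Irx4 and Gata6. The ALD number was 2 under the filter at the 60th percentile, quantile normalization and trimmed-mean scaling, and the interaction number was 0 with no filter on low values. The cause was not tested.

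Leaving out 1 array gave 3 to 4 members for CVZ, 2 to 3 for COR, 0 to 1 for ALD, 2 to 4 for the mean, 1 to 1 for COR against CVZ, 1 to 2 for ALD against CVZ, 1 to 3 for ligand plus RU486 against ligand, 0 to 1 for the interaction, and 0 to 0 for ALD against COR, RU486 against vehicle and ligand plus RU486 against RU486. Without the first vehicle array Gata6 and not Irx4 passed the interaction (-0.75, adjusted p 0.03). Values that changed sign were Irx3 for ALD against CVZ (-0.15), Irx4 for ALD against vehicle (0.0053) and Prox1 for COR against CVZ (-0.022) with the mean of all probe sets, and Myh6 for ligand plus RU486 against ligand (0.047) with quantile normalization. Over all tested probe sets, the CVZ calls numbered 1483, with 215 under no replicate block and 646 under no mean-variance trend. The COR calls numbered 632, with 41 and 117 under these settings, the ALD calls 177, with 13 and 15, and the calls for ligand plus RU486 against ligand 907, with 49 and 43. Without 1 array the last came to 186 (CVZ plus RU486), 555 (second CVZ) or 573 (second COR), the COR calls to 338 (first COR) or 392 (second COR), and the 1013 calls for the mean of the ligands to 645 (first vehicle) or 639 (second vehicle). With no filter COR against CVZ gave 106 calls where it had 180, ALD against COR 21 where it had 55, and RU486 against vehicle 13 where it had 24.

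Groups of 2 arrays or 1, 3 residual degrees of freedom, unknown doses and 1 time limit these comparisons.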
